A study of Mus musculus with 6 samples.

Results

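The genes of polyamine metabolism followed here in the pregnant mouse uterus numbered 10: *Odc1*, *Amd1*, *Srm* and *Sms* (synthesis), *Sat1*, *Smox*, *Paox* and *Aoc1* (breakdown), and *Oaz1* and *Azin1* (regulators of the ODC1 enzyme). They were chosen by name, with earlier results of the same arrays known, and all their probes were then found by RefSeq accession. The array carried probes for 9 of the 10, and these 9 are among the 14797 genes tested. RNA of whole uteri without embryos was measured on 6 Agilent arrays read in 1 colour, with 3 *Sox17f/f* and 3 *Sox17ed/ed* samples at gestation day (GD) 3.5 from females mated at 8 to 10 weeks of age. No source used here says that each sample came from a single female, so p-values measure the spread between these samples. Both groups carry the floxed *Sox17* allele. The *Sox17ed/ed* females also carry *LtfiCre/+*, a recombinase expressed from the lactoferrin locus that deletes *Sox17* in the uterine epithelium. *Sox17* of the stroma, muscle and vessels is not targeted, and the arrays measured all of these tissues together. In such a mixture fewer cells of a type and less RNA per cell cannot be told apart.

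Polyamines (putrescine, spermidine and spermine) are small positively charged molecules that bind nucleic acids and are needed for cell growth. ODC1 makes putrescine from ornithine, and aminopropyl groups derived from S-adenosylmethionine are added by spermidine synthase and then by spermine synthase. The chain is run backwards by acetylation and oxidation, and antizyme lowers the level of ODC1 protein when polyamines are abundant. In rodents, uterine polyamine synthesis is known to rise around implantation and decidualization.

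The deleted gene gave a check of the labels. *Sox17* had a normalized log2 signal of 12.17 in *Sox17f/f* and 9.72 in *Sox17ed/ed* uteri, a difference of -2.45 (limma adjusted p = 2.57e-05). Between 60.7% and 65.7% of non-control spots were well above background on the *Sox17f/f* arrays and between 56.8% and 59.4% on the *Sox17ed/ed* arrays. Correlations between arrays of a genotype were 0.990 to 0.995 across the genes tested, and 0.962 to 0.965 between genotypes. All 6 arrays lay on 1 slide with each genotype in its own line of it, so position on the slide and genotype cannot be told apart. Every difference given here is *Sox17ed/ed* minus *Sox17f/f* on the scale of quantile-normalized log2 signal, with n = 3 arrays in each genotype. Because the genes were picked with this contrast known, their differences are given as a description, with standard errors and 95% confidence intervals and without p-values. Whether a gene was called in the fit across all genes is stated in the same way, as part of that description and not as evidence.

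Absolute differences ranged from 0.41 to 2.07 for the 4 breakdown genes, and from 0.19 to 0.38 for the 3 measured synthesis genes. *Aoc1*, *Paox* and *Sat1* were higher in *Sox17ed/ed* uteri, *Smox* and *Sms* were lower, and *Oaz1* was almost level. At an adjusted limma p under 0.05, 5 of the 9 genes were called, 3 higher and 2 lower, where 18.9% of all genes tested were called (8.82% higher, 10.1% lower). At the thresholds of the study's methods, unadjusted p under 0.01 and a fold change of at least 1.4, 3 of 9 were called, 2 higher and 1 lower, beside 12.5% of all genes tested (6.03% higher, 6.48% lower). The arrays of the genotypes did not overlap for 7 of the 9, 3 higher and 4 lower, beside 40.5% of all genes tested (19.5% higher, 21.0% lower). The median absolute difference was 0.38 for the 9 genes and 0.17 for all genes tested. Since the genes were picked with these results in view, nothing is read from these counts. Leaving out *Sox17f/f* replicate 1, *Sox17f/f* replicate 2 or *Sox17ed/ed* replicate 1 took the number called from 5 to 3. In the same fits the number called over all 14797 genes tested went from 2804 to 1660, 1910 and 1810.

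**Figure D1:**
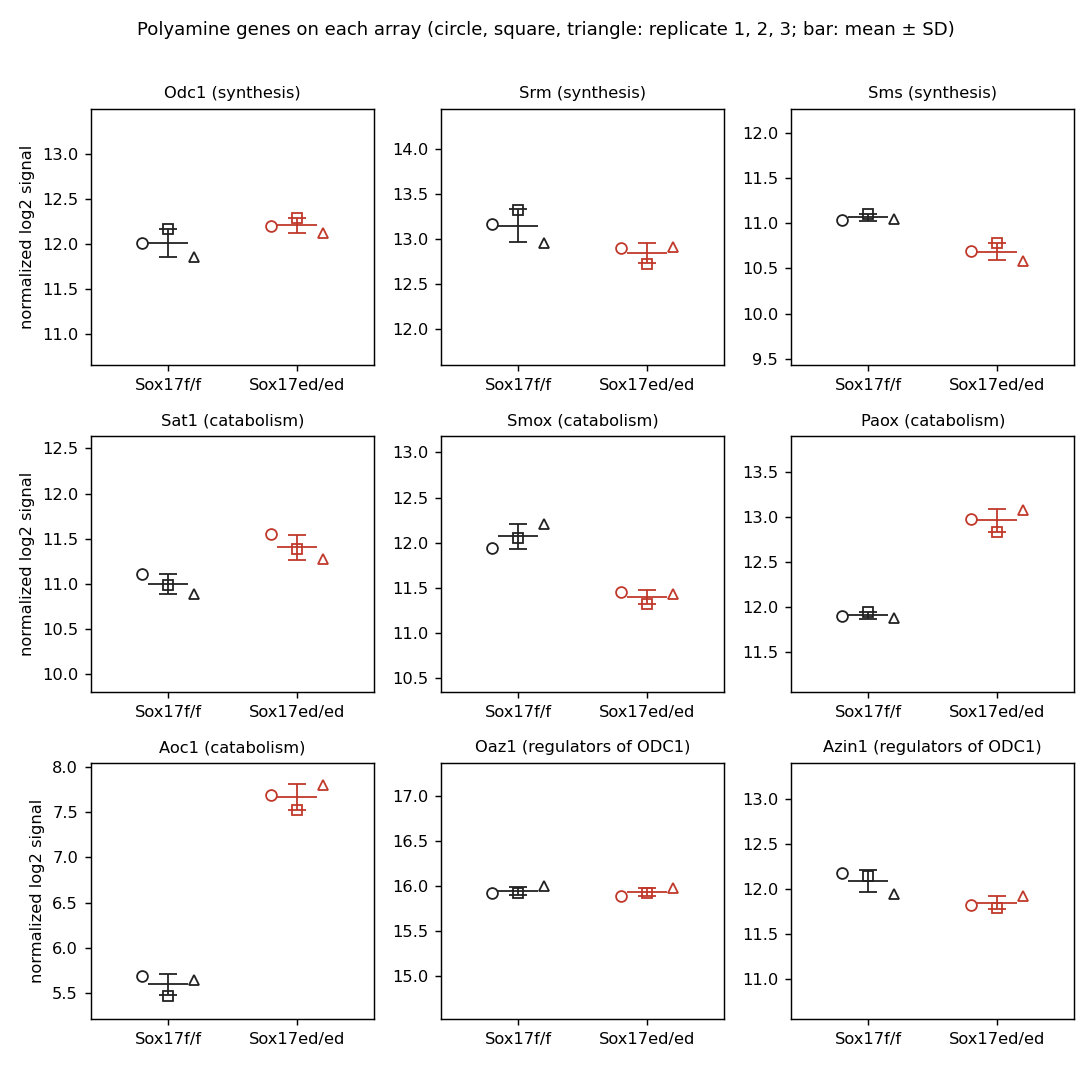
Normalized log2 signal of the 9 measured polyamine genes on each of the 6 arrays (circle, square and triangle for replicates 1, 2 and 3; horizontal bar and whiskers, mean ± SD, n = 3). Each panel spans the same number of log2 units. *Aoc1* and *Paox* show the widest separation of the genotypes and *Oaz1* none.

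*Odc1* encodes ornithine decarboxylase, the rate-limiting enzyme that makes putrescine. Its log2 signal was 12.01, 12.17 and 11.86 on the *Sox17f/f* arrays and 12.20, 12.29 and 12.12 on the *Sox17ed/ed* arrays. The genotypes overlapped, because *Sox17f/f* replicate 2 lay above *Sox17ed/ed* replicate 3. The difference was 0.19 (standard error 0.10, 95% confidence interval -0.05 to 0.43), an interval that includes 0. The other probes of the gene differed by 0.38 and 0.25. *Amd1* makes decarboxylated S-adenosylmethionine, the donor of aminopropyl groups, and no probe on the array matched it. The array has 3 probes for its paralogue *Amd2*, which fell, with a difference of -0.41 (standard error 0.09, limma adjusted p = 0.0251). The other *Amd2* probes differed by -0.43 and -0.63. Whether these probes also read *Amd1* transcripts was not tested.

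*Srm* encodes spermidine synthase, which turns putrescine into spermidine. The *Srm* signal on the log2 scale was 13.16, 13.32 and 12.95 on the *Sox17f/f* arrays and 12.90, 12.72 and 12.91 on the *Sox17ed/ed* arrays. All *Sox17ed/ed* arrays lay lower, although *Sox17f/f* replicate 3 was only slightly above the nearest of them. The difference was -0.30 (standard error 0.11, 95% confidence interval -0.58 to -0.03), and the other probe gave -0.31. *Srm* was not called with 6 arrays and was called without *Sox17f/f* replicate 3, at -0.40. *Sms*, on the X chromosome, encodes spermine synthase, which makes spermine from spermidine. *Sms* had log2 signals of 11.04, 11.11 and 11.05 on the *Sox17f/f* arrays and 10.69, 10.78 and 10.59 on the *Sox17ed/ed* arrays. The *Sox17f/f* arrays lay close together and above all *Sox17ed/ed* arrays. The difference was -0.38 (standard error 0.07, 95% confidence interval -0.56 to -0.20), a 1.30-fold lower level, and the other probes gave -0.45 and -0.47. The call for *Sms* was lost without *Sox17f/f* replicate 1 (-0.39), *Sox17f/f* replicate 2 (-0.36) or *Sox17ed/ed* replicate 1 (-0.38).

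*Sat1* encodes the acetyltransferase that marks spermidine and spermine for export or oxidation. Its log2 signal was 11.11, 10.99 and 10.89 on the *Sox17f/f* arrays and 11.55, 11.38 and 11.28 on the *Sox17ed/ed* arrays. Every *Sox17ed/ed* array was higher, and replicate 1 was the highest of both genotypes. The difference was 0.41 (standard error 0.10, 95% confidence interval 0.17 to 0.65), a 1.33-fold higher level from the single probe of the gene. The call for *Sat1* was lost with each *Sox17f/f* array left out (0.46, 0.40 and 0.35) and without *Sox17ed/ed* replicate 1 (0.34) or replicate 2 (0.42). It was kept without *Sox17ed/ed* replicate 3.

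*Smox* encodes spermine oxidase, which takes spermine directly back to spermidine and releases hydrogen peroxide. *Smox* had log2 signals of 11.95, 12.05 and 12.21 on the *Sox17f/f* arrays and 11.46, 11.32 and 11.43 on the *Sox17ed/ed* arrays. The genotypes did not overlap, and the *Sox17ed/ed* arrays were the tighter group. The difference was -0.67 (standard error 0.09, 95% confidence interval -0.89 to -0.45), a 1.59-fold lower level, and the second probe gave -0.57. *Paox* encodes the peroxisomal oxidase of acetylated polyamines, the step after *Sat1*. Log2 signals of *Paox* were 11.91, 11.95 and 11.88 on the *Sox17f/f* arrays and 12.97, 12.83 and 13.08 on the *Sox17ed/ed* arrays. Again the genotypes lay apart, here with the *Sox17ed/ed* arrays above. The difference was 1.05 (standard error 0.08, 95% confidence interval 0.85 to 1.25), a 2.07-fold higher level from 1 probe. Both oxidases lay apart between the genotypes, in opposite directions. Within an array, *Paox* minus *Smox* was -0.04, -0.10 and -0.33 on the *Sox17f/f* arrays and 1.52, 1.52 and 1.65 on the *Sox17ed/ed* arrays. These are different probes, so this quantity shows unequal change and not which transcript is more abundant.

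*Aoc1* encodes a secreted copper amine oxidase, also called diamine oxidase, that breaks down putrescine and histamine. Its log2 signal was 5.68, 5.46 and 5.64 on the *Sox17f/f* arrays and 7.69, 7.52 and 7.80 on the *Sox17ed/ed* arrays. The genotypes were far apart next to the spread within each. The difference was 2.07 (standard error 0.10, 95% confidence interval 1.83 to 2.32), a 4.21-fold higher level, and 2.18% of all genes tested had a larger absolute difference. The probe was well above background on all 6 arrays but was the dimmest of those that stand for a gene, and after normexp background correction the difference was 1.31, still called. That correction adds an offset of 50 to every signal. On the linear scale the mean log2 signals of this probe are 48.4 (*Sox17f/f*) and 203.7 (*Sox17ed/ed*). How much of the shift comes with the offset was not tested.

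*Oaz1* encodes antizyme, which binds ODC1 and sends it to the proteasome. Its log2 signal was 15.95 ± 0.04 (SD, n = 3) in *Sox17f/f* and 15.93 ± 0.04 (SD, n = 3) in *Sox17ed/ed* uteri. The genotypes overlapped and the difference was -0.02 (standard error 0.06, 95% confidence interval -0.17 to 0.14). Its sign changed without *Sox17f/f* replicate 3 (0.01), without *Sox17ed/ed* replicate 1 (0.0046) and after normexp background correction (0.12). *Azin1* encodes the antizyme inhibitor, an inactive relative of ODC1 that binds antizyme in its place. Its signal was 12.09 ± 0.12 (SD, n = 3) in *Sox17f/f* and 11.85 ± 0.07 (SD, n = 3) in *Sox17ed/ed* uteri, with every *Sox17ed/ed* array the lower. The difference was -0.24 (standard error 0.09, 95% confidence interval -0.45 to -0.03), not called, and the other probes gave -0.53 and -0.30. With the mean of its probes in place of the brightest, *Azin1* was called, at -0.36.

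**Figure D2:**
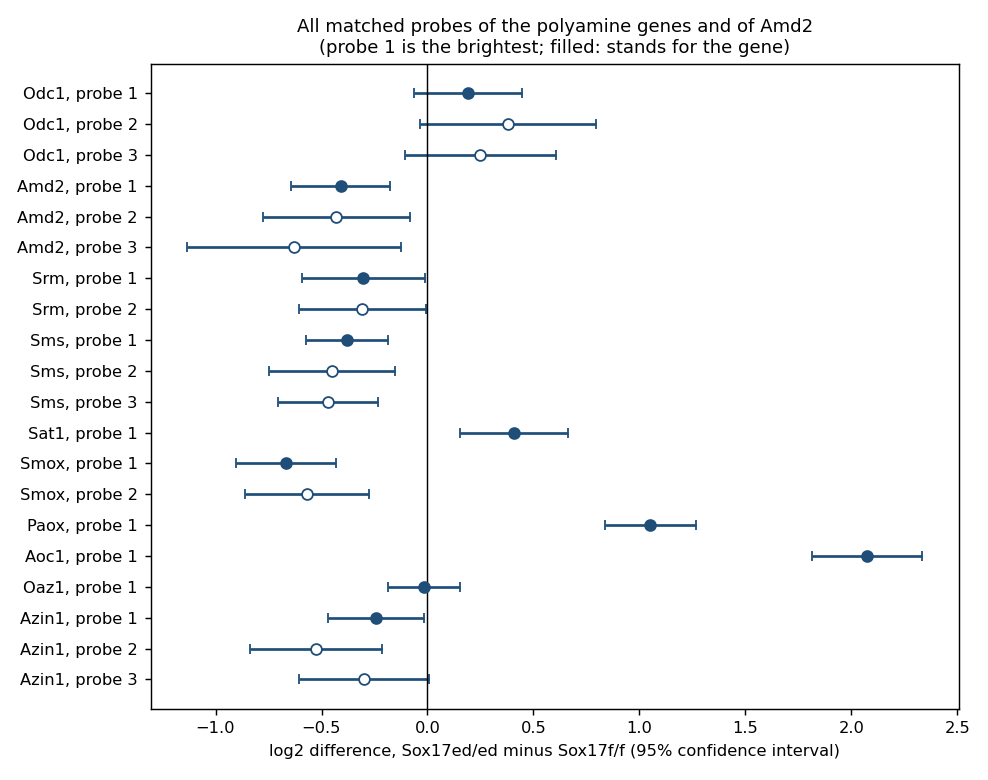
Log2 difference (*Sox17ed/ed* minus *Sox17f/f*, with 95% confidence interval from a fit across all probes) for each of the 17 probes of the 9 genes and the 3 probes of *Amd2*, ordered by role. Filled points are the probes that stand for a gene. Within each gene that has more than 1 probe, all probes have differences of the same sign.

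All 17 probes were well above background on all 6 arrays, and none was saturated. The 5 genes with more than 1 probe had the same sign of difference at each of their probes, and 4 genes rest on 1 probe. On all 11 probes of *Odc1*, *Srm*, *Sms* and *Amd2*, *Sox17f/f* replicate 2 was the highest *Sox17f/f* array, a feature picked after the values were seen. Probes of 1 gene read the same samples and are not independent. Counted with 1 probe for each gene, the feature was present in 33.2% of all genes tested. *Paox* had it too, and *Sat1*, *Smox*, *Aoc1*, *Oaz1* and *Azin1* did not. *Smox*, *Paox*, *Aoc1* and *Odc1* kept their direction and their side of the adjusted threshold under all 14 alternatives tried.

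**Figure D3:**
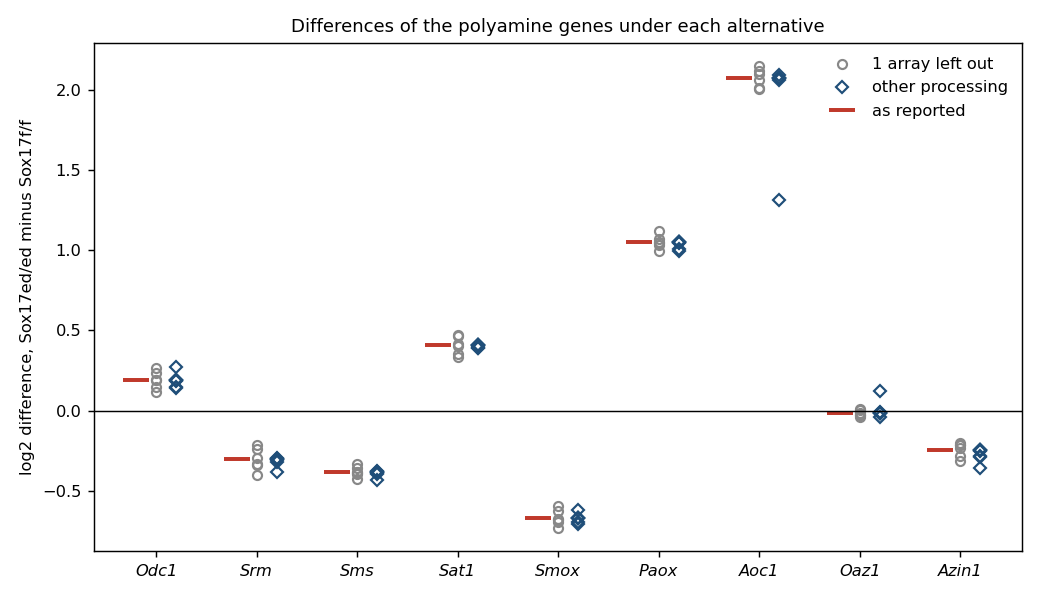
Log2 difference (*Sox17ed/ed* minus *Sox17f/f*) of each gene as reported (red bar), with each array left out (grey circles) and under other processing (blue diamonds). The widest shift is that of *Aoc1* after normexp background correction, from 2.07 to 1.31, and *Oaz1* crosses 0.

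RefSeq promoter windows of 300 bases on GRCm38.p6, 250 before and 50 after the start site, were at hand for 8 of the 10 genes. They were searched on both strands for CACGTG (the E-box that MYC binds), GGGCGG (the GC box), ACAAT (the core recognized by SOX factors) and CCAAT. The GC box was in the windows of 6 of the 8 genes, with 6 matches in *Smox*, 4 in *Odc1* and in one *Sms* window, 3 in *Paox*, 2 in *Sat1* and 1 in *Amd1*. By window, since some genes have more than 1, 7 of 11 held a GC box, beside 35.7% of all 32851 promoter windows, of which 1.35% held 6 or more. Both *Paox* windows, which overlap, hold the same 3 GC boxes at the same positions, and each is counted among the 7. CACGTG (7.15% of all windows) and ACAAT (31.0%) were found in *Sms* alone, and CCAAT (37.4%) in *Sms* and *Oaz1*. Neither *Aoc1* window held any of the 4 motifs, which says only that these letters are not in those windows. No match of one motif overlapped a match of another, whereas some GC boxes of *Sms* and of *Paox* overlapped each other and are counted separately. These matches are descriptions of sequence and not binding sites. The windows printed here show, for *Smox*, which was lower, *Paox* and *Sat1*, which were higher, and *Odc1*, whose genotypes overlapped, the GC box nearest upstream of the first listed start site, and then the E-box and SOX core of *Sms*, with the motif in capitals as read 5′ to 3′ on the gene's strand.
*Smox*, GC box, chr2:131491840-131491863, + strand: gcgggcccgGGGCGGagcacccag
*Paox*, GC box, chr7:140125573-140125596, + strand: ccataggccCCGCCCctcgtccca
*Sat1*, GC box, chrX:155216441-155216464, - strand: tggaacagaGGGCGGtgcttcggc
*Odc1*, GC box, chr12:17544849-17544872, + strand: acggagtccCCGCCCctcccccgc
*Sms*, E-box, chrX:157492469-157492492, - strand: agcggggttCACGTGcatttaaag
*Sms*, SOX core, chrX:157492493-157492516, - strand: aatagaaacATTGTtaataatccc

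Beyond these genes, 47 further genes of the pathway were listed by role, and 38 of them were tested. The lists, *Amd2* included, were drawn up with earlier results of these arrays known. Their p-values are therefore given as a description and not as independent evidence. Of the 38, 12 passed an adjusted limma p under 0.05 in *Sox17ed/ed* uteri, 5 higher and 7 lower, and 7 passed the thresholds of the study's methods. Of all genes tested, 18.9% passed the adjusted threshold (8.82% higher, 10.1% lower) and 12.5% those of the methods. *Arg2*, *Ass1*, *Gatm*, *Maob* and *Aldh2* were called under all 14 alternatives, and the other 7 under 4 to 9 of them. With 1 *Sox17f/f* array left out, the number called was 5 without replicate 1, 5 without replicate 2 and 11 without replicate 3. It was 6 without *Sox17ed/ed* replicate 1, 8 without replicate 2 and 7 without replicate 3. Over all genes tested, 1660 to 2651 were called with 1 array left out, against 2804 with all 6 arrays.

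In arginine and ornithine supply, 3 of 8 genes tested rose and 2 fell, beside 8.82% and 10.1% of all genes tested. *Arg2*, the mitochondrial arginase that makes ornithine, had a log2 signal of 7.57, 7.56 and 7.65 on the *Sox17f/f* arrays and 8.48, 8.45 and 8.72 on the *Sox17ed/ed* arrays. All *Sox17ed/ed* arrays lay above, and *Arg2* rose by 0.96 (standard error 0.09, limma adjusted p = 0.00103). *Ass1*, which makes argininosuccinate on the way to arginine, read 9.49, 9.39 and 9.46 on the *Sox17f/f* arrays and 11.68, 11.61 and 11.58 on the *Sox17ed/ed* arrays. It rose by 2.18 (standard error 0.06, limma adjusted p = 1.47e-05), a 4.52-fold change and the largest of the 38 genes. *Gatm*, which diverts arginine to creatine synthesis, rose by 1.16 (standard error 0.15, limma adjusted p = 0.00367). *Agmat*, named for the hydrolysis of agmatine to putrescine, fell by 0.63 (limma adjusted p = 0.0344), and after normexp the difference was -0.23 and not called. *Slc7a2*, a transporter of cationic amino acids, fell by 0.50 (limma adjusted p = 0.0468), with -0.24 after normexp. *Oat* (0.16), *Asl* (0.19) and *Slc7a1* (0.30) were not called. The *Agmat* call was lost without *Sox17f/f* replicate 1 or 2 or *Sox17ed/ed* replicate 1 or 2 (-0.67 to -0.50), and that of *Slc7a2* without any 1 array other than *Sox17ed/ed* replicate 2 (-0.53 to -0.40).

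*Mat2a* and *Dhps* were the genes called in the methionine branch and in the use of spermidine. Of 8 genes of methionine supply and salvage tested, *Mat2a*, which makes S-adenosylmethionine, fell by 0.27 (limma adjusted p = 0.0435), and the other 7 were not called. One of these, *Adi1*, differed by -0.26 with its brightest probe (limma adjusted p = 0.0601). *Adi1* was called with the mean of its probes, at -0.58, and with the intensity trend, but not after normexp (-0.15). Of the 4 genes for the hypusine modification, which attaches part of spermidine to the translation factor eIF5A, *Dhps*, the enzyme of the first step, fell by 0.39 (limma adjusted p = 0.0210). *Dohh*, the enzyme of the second step, differed by -0.06, *Eif5a* by 0.01 and *Eif5a2* by -0.29 (limma adjusted p = 0.0913). The *Mat2a* call was lost with each of the 6 arrays left out in turn (-0.31 to -0.23). The *Dhps* call was lost without *Sox17f/f* replicate 1 or 2 or *Sox17ed/ed* replicate 1 or 3 (-0.40 to -0.34).

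Among paralogues and relatives of the 10 genes, 6 of 8 were tested and *Amd2* alone was called, with a call lost without *Sox17f/f* replicate 1 or 2 or *Sox17ed/ed* replicate 2 or 3 (-0.42 to -0.34). The antizyme *Oaz2* differed by 0.06, the antizyme inhibitor *Azin2* by 0.09, the acetyltransferase *Sat2* by -0.07, and the copper amine oxidases *Aoc2* and *Aoc3* by 0.02 and -0.15. *Oaz3* and *Satl1* did not pass the filter on low signal. Of 7 polyamine transport genes tested, *Atp13a2*, a lysosomal exporter of polyamines, rose by 0.32 (limma adjusted p = 0.0355), and *Slc12a8* fell by 0.33 (limma adjusted p = 0.0160). The largest absolute difference of the 7 was that of *Atp13a3*, at -0.45, which was not called (limma adjusted p = 0.0511). Every *Sox17ed/ed* array was lower for *Atp13a3*. *Atp13a3* was called after normexp (-0.48), with the 75th percentile shift, the deposited table, the intensity trend and the filter asking for signal on every array. It was also called without *Sox17f/f* replicate 3 (-0.53), but not with any other array left out. The *Atp13a2* call was lost without any 1 array other than *Sox17ed/ed* replicate 2 (0.27 to 0.33). The *Slc12a8* call was lost without *Sox17f/f* replicate 1 or 2 or *Sox17ed/ed* replicate 1 or 2 (-0.35 to -0.30), and its difference was -0.10 after normexp.

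Of 5 genes for downstream breakdown of amines and aldehydes, 1 rose and 1 fell. *Maob*, a mitochondrial monoamine oxidase, had a log2 signal of 13.63, 13.48 and 13.79 on the *Sox17f/f* arrays and 12.78, 12.78 and 12.58 on the *Sox17ed/ed* arrays. All *Sox17ed/ed* arrays were lower, and *Maob* fell by 0.92 (standard error 0.11, limma adjusted p = 0.00238). *Aldh2*, the mitochondrial aldehyde dehydrogenase, rose by 0.53 (standard error 0.08, limma adjusted p = 0.00579). *Maoa*, *Aldh9a1* and *Aldh7a1* differed by -0.28, 0.05 and -0.06 and were not called.

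**Figure D4:**
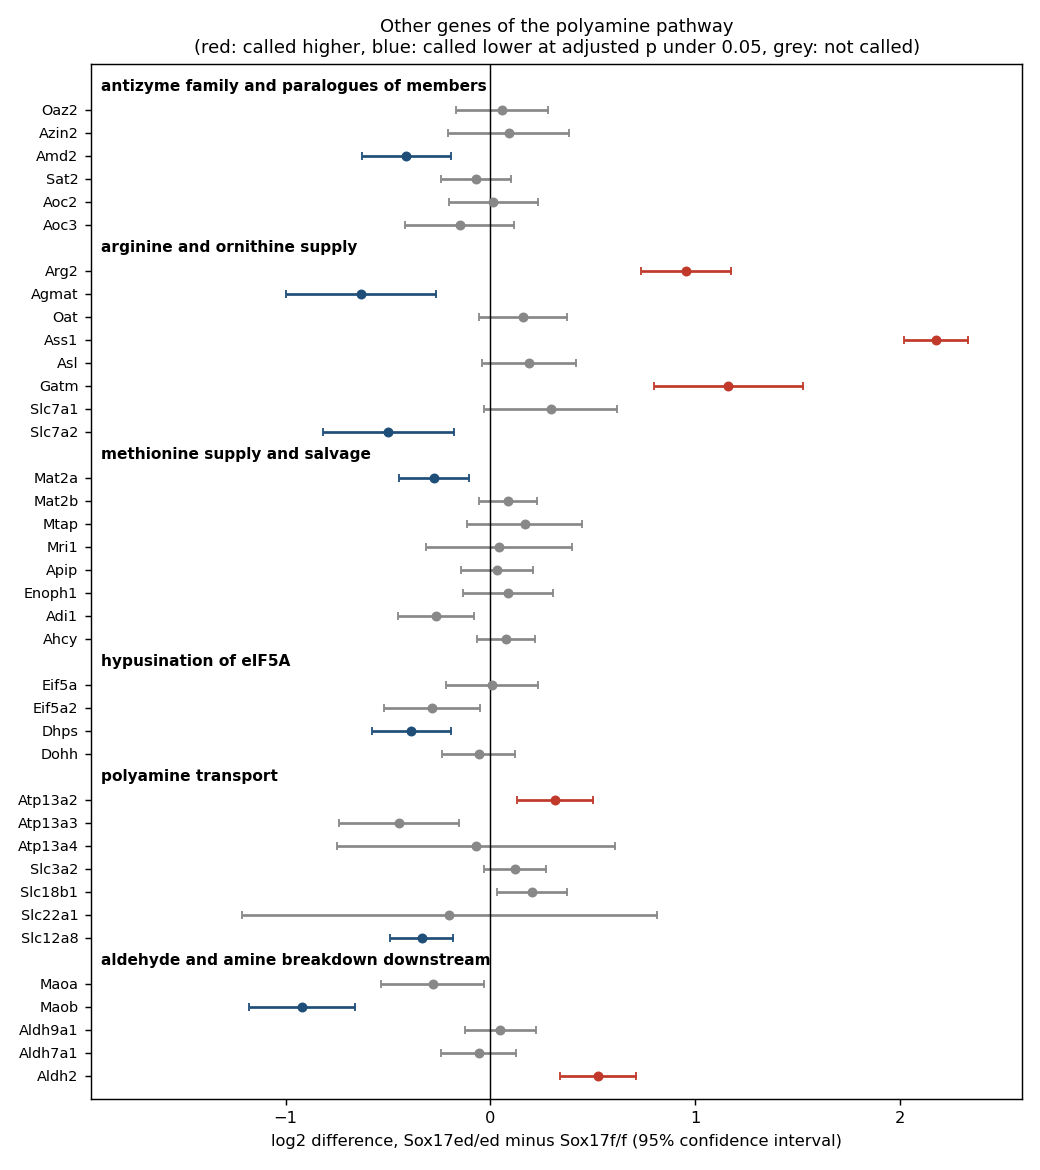
Log2 difference (*Sox17ed/ed* minus *Sox17f/f*) with 95% confidence interval for the 38 further pathway genes tested, grouped by role (red, higher and blue, lower at an adjusted p under 0.05; grey, not called). *Ass1*, at 2.18, lies farthest from 0, and the lowest is *Maob*, at -0.92.

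Markers of cell types in the uterus differed between the genotypes as well, and their part in the differences above was not tested. The counts of markers called that follow stand beside 8.82% of all genes tested called higher and 10.1% called lower. All 5 gland markers were lower, with a summed linear signal of 33625 to 53704 on the *Sox17f/f* arrays and 121 to 195 on the *Sox17ed/ed* arrays, and *Prss29* was not well above background on any *Sox17ed/ed* array. Of 9 epithelial markers, 4 were higher and 2 lower, and their summed signal was 54477 to 57033 on the *Sox17f/f* and 53809 to 65636 on the *Sox17ed/ed* arrays. Of 9 stromal markers 1 was higher and 1 lower, of 7 smooth muscle markers 2 were lower, and of 6 endothelial markers 1 was higher and 3 were lower. The summed signal of the smooth muscle markers was 469531 to 516587 on the *Sox17f/f* arrays and 341357 to 412355 on the *Sox17ed/ed* arrays. For the stromal markers it was 399786 to 414276 and 338045 to 395653, in the same order. Sums of the macrophage and leukocyte markers were 16742 to 16931 and 18799 to 20217. Those of the mesothelial markers were 13278 to 14095 and 16071 to 16211, and the endothelial sums overlapped. Of 5 macrophage and leukocyte markers 1 was higher, and of 4 mesothelial markers 2 were higher and 1 lower. The lower one, *Lrrn4*, was not well above background on any *Sox17ed/ed* array and passed the filter on low signal through the *Sox17f/f* arrays alone, as did *Prss29*. None of the 4 neutrophil markers, 3 erythrocyte markers and 1 adipocyte marker tested was called. Of 9 cell cycle genes, 8 were higher on every *Sox17ed/ed* array than on any *Sox17f/f* array, beside 19.5% of all genes tested, and 1 of them, *Mcm5*, was called, at 0.40. That call was lost with any 1 array left out other than *Sox17f/f* replicate 2 (0.35 to 0.43).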

How the data were processed

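For every array, scanner files were deposited by the authors, and the deposited value used here is the processed spot intensity, from which the software (Feature Extraction 11.0.1.1 per the file headers, 9.1 in the submitters' processing notes) had subtracted background and spatial trends without normalization between arrays. A deposited table of the same arrays, within 0.191% of the mean processed signal, served as an alternative. From the files, control spots and 169 to 302 flagged spots per array were left out, log2 intensities were quantile normalized between arrays, as named in the study's methods, and replicate spots were averaged. A probe had to be well above background on 3 or more of the 6 arrays. Accessions were matched to a RefSeq gene table of GRCm38.p6 (array design, mm9), naming 26582 of 55681 probes, and the brightest probe by mean signal represented its gene. limma 3.58.1, run in R 4.3.3, compared the genotypes through lmFit and eBayes, and p-values were adjusted over 14797 genes by the Benjamini-Hochberg method. Tables and plots were made with Python 3.11.15, pandas 2.3.3, numpy 2.4.6 and matplotlib 3.10.9. On simulated data, 145 of 200 genes with a true log2 change of 1 were called at adjusted p under 0.05, with 10 false calls among 14797 genes.

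The alternatives were a 75th percentile shift, normexp with an offset of 50 (on median spot and background signals, since no mean signal column is in the files), no filter, a filter asking for signal above background on every array, averaging over the probes of each gene, an intensity trend, the deposited table, the replicate number as a block and each array left out. Each fit with 1 array left out estimated the spread anew from the remaining arrays, pooled over the genotypes. The 3 arrays of each genotype measure separate samples, and their number limits the precision. Each measured gene of the 10 has its values given. The pathway and marker lists have their counts of called genes given, with values for the genes named. The genes and lists were chosen with earlier results of these data known.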

Additional observations from a re-analysis of the deposited data

How the results depend on the processing

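Over 14 alternatives, *Aoc1* (1.31 to 2.15), *Paox* (0.99 to 1.12), *Smox* (-0.73 to -0.60) and *Odc1* (0.11 to 0.27) kept their direction and their side of the adjusted threshold. *Sat1* was no longer called without the filter on low signal (0.41), and its difference was 0.34 to 0.47 with 1 array left out. *Sms* ranged from -0.43 to -0.33, *Srm* from -0.40 to -0.22, *Azin1* from -0.31 to -0.20 and *Oaz1* from -0.040 to 0.0094 with 1 array left out. *Azin1* became called with the mean of its probes (-0.36). *Oaz1* changed sign after normexp (0.12), without *Sox17f/f* replicate 3 (0.0094) and without *Sox17ed/ed* replicate 1 (0.0046). The number of the 9 genes called was 3 by the thresholds of the study's methods and 3 to 5 with 1 array left out. Of the 38 further pathway genes, 12 were called, against 7 by the methods' thresholds, 7 with no filter and 5 to 11 with 1 array left out. The cause of these shifts was not tested. Over all genes, the number called was 2804, against 1861 with the replicate block, 2077 with no filter on low signal, 1851 by the methods' thresholds and 1660 to 2651 with 1 array left out.

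The labels number the arrays 1 to 3 in each genotype, and same-numbered arrays had correlations of their deviations of 0.06, -0.11 and 0.00, so the numbers were not taken to pair the samples. With the replicate block, *Sms* (-0.38) was no longer called, 6 of the further pathway genes were called, and 4 of the 9 genes were. The scaling alternatives moved the median of all genes by less than 0.1 on the log2 scale.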
